A study of Rattus norvegicus with 4 samples.

Results

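Pccb, Ahcy, Cbs and Upb1 encode enzymes of amino acid, propionate and pyrimidine breakdown, and their RNA was followed in the livers of ciprofibrate-dosed rats. The 4 genes were chosen by symbol, with their ratios on these same arrays already known, out of 2644 genes that carried 1 symbol and a ratio on all 4 arrays. Each gene was represented by 1 spotted cDNA clone printed at 2 places, so that 8 of the 7688 spots of an array belonged to them, and none of these spots lacked a ratio. The series holds a single contrast and the choice rested on it, so the ratios of the 4 genes are given below as a description. Nothing is read from their calls in a fit over all genes.

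Each of 4 two-colour cDNA arrays, on which a pair of differently labelled RNA samples competes for the same spotted clones, set total liver RNA from a female Fischer rat given ciprofibrate at 50 mg per kg of body weight per day for 60 days against a single pool of total liver RNA from 5 control rats. Ciprofibrate is a lipid-lowering fibrate that activates the nuclear receptor PPARα and makes peroxisomes proliferate in rodent liver. The labels give no further allele, vehicle or age, and the common pool carries no spread between control rats. The rats are not numbered in the labels, so each array was taken as another rat, and if a rat were shared the spread between arrays would be technical. The labels put the treated liver in channel 1 and name it before the pool, without dyes, so a positive log2 ratio is read as likely higher in treated liver. Of 11 measured genes from a panel of 24 textbook PPARα targets, 8 had a positive and 3 a negative mean. Of the 8, Cpt1b and Cpt2 stood near 0, at 0.05 each. The negative means were those of Acot2, Cpt1a (-0.22 ± 0.19, SD, n = 4) and Hsd17b4 (-0.36 ± 0.63). The limma fit given below called 4 of the 11 positive and 1, Acot2 (-0.39), negative. Over all genes 17.1% were positive and 16.6% negative calls. Ratios moved with the place of a spot on the slide, as given below, and the places of the panel genes were not examined. That panel was drawn up with earlier results known, and if the ratio ran the other way every sign below would turn.

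Liver is the main site at which excess amino acids are taken apart. Pccb is the beta subunit of propionyl-CoA carboxylase, the mitochondrial biotin enzyme that turns propionyl-CoA from isoleucine, valine, methionine, threonine and odd-chain fatty acids into methylmalonyl-CoA. Ahcy splits S-adenosylhomocysteine, the product of methyl transfer, into adenosine and homocysteine, and Cbs joins homocysteine to serine to form cystathionine, the entry to cysteine synthesis. Upb1, beta-ureidopropionase, releases beta-alanine at the end of uracil breakdown.

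The genes lie on rat chromosomes 8 (Pccb, chr8:110470197-110520222), 3 (Ahcy, chr3:164029338-164044562) and 20 (Cbs, chr20:9709394-9733925, and Upb1, chr20:13216693-13243016), all on the minus strand of the GRCr8 assembly. The stretch upstream of each gene is shown because PPARα binds a direct repeat of the hexamer AGGTCA with a spacer of 1 base, and the 4 genes had ratios on both sides of 0. The sequences are from RefSeq (GRCr8), 5′ to 3′ on the strand of the gene, and cover the bases from 250 upstream to the last base before the start. Those of Pccb end 37 bases before the tabulated start, where another transcript of the gene begins. Capitals mark matches on either strand to AGGTCA, the CCAAT box (CCAAT), the GC box (GGGCGG) and the TATA box (TATAAA).
Pccb: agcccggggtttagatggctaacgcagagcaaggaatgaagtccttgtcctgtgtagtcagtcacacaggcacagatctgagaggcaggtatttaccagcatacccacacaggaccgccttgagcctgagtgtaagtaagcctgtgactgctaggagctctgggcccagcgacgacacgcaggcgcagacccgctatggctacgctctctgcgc
Ahcy: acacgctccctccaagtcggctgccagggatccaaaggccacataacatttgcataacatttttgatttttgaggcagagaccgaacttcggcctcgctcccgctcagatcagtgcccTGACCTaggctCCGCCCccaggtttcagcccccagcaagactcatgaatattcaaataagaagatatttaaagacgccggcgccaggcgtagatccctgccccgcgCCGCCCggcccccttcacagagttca
Cbs: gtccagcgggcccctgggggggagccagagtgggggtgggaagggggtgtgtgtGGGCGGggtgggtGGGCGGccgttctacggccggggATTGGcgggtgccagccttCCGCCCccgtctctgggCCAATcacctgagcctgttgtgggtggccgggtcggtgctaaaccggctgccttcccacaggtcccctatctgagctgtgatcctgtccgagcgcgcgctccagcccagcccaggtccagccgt
Upb1: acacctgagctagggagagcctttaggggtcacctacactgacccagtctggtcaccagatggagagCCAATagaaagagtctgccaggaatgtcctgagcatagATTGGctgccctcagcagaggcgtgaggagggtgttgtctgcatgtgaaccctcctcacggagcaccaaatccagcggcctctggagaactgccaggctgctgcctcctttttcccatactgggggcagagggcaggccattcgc
The windows are chr8:110520223-110520436, chr3:164044563-164044812, chr20:9733926-9734175 and chr20:13243017-13243266 in that order. None of the 4 held the full repeat AGGTCANAGGTCA, which occurred in 0.0508% of 33469 RefSeq windows of 250 bases. Ahcy held a single AGGTCA hexamer, read on the opposite strand as TGACCT 132 bases upstream of the start, a match found in 14.1% of all windows. GC boxes stood 2 times before Ahcy and 3 times before Cbs (30.5% of windows hold one), and CCAAT boxes 2 times each before Cbs and Upb1 (34.0%). No TATAAA was in the 4 windows (12.9%), and the 214 bases of Pccb held none of these letters. The window of Cbs was the richest in G and C at 71.2%, against 56.0% to 58.0% in the others.

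The deposited values are log10 ratios. They were converted to log2, averaged over the spots of a clone and centred on the median of each array. On this scale Pccb stood at 0.44, 0.62, 0.72 and 0.58 on replicates 1 to 4. All 4 values were positive, lowest on replicate 1 and highest on replicate 3. The mean was 0.59 ± 0.12 (SD, n = 4), a 1.50-fold difference, which placed Pccb at rank 47 from the top of the 2644 genes. Its 2 spots gave nearly the same ratio, with a mean absolute difference of 0.03 and a largest one of 0.08, on replicate 4. Only 3.39% of the 1591 clones printed at 2 places and measured on every array had a smaller difference, and the median over them was 0.10.

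Ahcy, the hydrolase that feeds homocysteine to the pathway, was at 0.44, 0.41, 0.61 and 0.59 on replicates 1 to 4. Replicates 3 and 4 were higher than the other two, and no array fell to 0 or below. The mean was 0.51 ± 0.11 (SD, n = 4), 1.43-fold, at rank 111 from the top. The spots of Ahcy differed by 0.07 on average and by at most 0.13, on replicate 1.

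Cbs, the enzyme that draws homocysteine off toward cysteine, lay on the other side of 0. Its log2 ratios were -0.32, -0.16, -0.37 and -0.57 on replicates 1 to 4, nearest to 0 on replicate 2 and farthest on replicate 4. The mean was -0.36 ± 0.17 (SD, n = 4), a 1.28-fold difference. In rank it was far from extreme, since 478 genes had a lower mean. The spots of Cbs differed by 0.11 on average and by 0.26 on replicate 4, where 1 stood at -0.44 and the other at -0.70.

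Upb1 followed the order of Cbs over the arrays, with log2 ratios of -0.34, -0.18, -0.45 and -0.68 on replicates 1 to 4. Again replicate 2 was nearest to 0 and replicate 4 farthest from it. The mean of Upb1 was -0.41 ± 0.21 (SD, n = 4), 1.33-fold, with 374 genes lower. Its spots differed by 0.06 on average and by 0.15 on replicate 4.

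The 4 genes thus formed 2 pairs by sign. The lowest of the 8 array values of Pccb and Ahcy was 0.41 and the highest of Cbs and Upb1 was -0.16. Nothing is read from this gap, because the genes were chosen with these ratios known and paired by sign. Within a pair the values lay close together with arrays centred. Pccb exceeded Ahcy by 0.08 ± 0.10 (log2, SD, n = 4), less than its spread, and was above it on replicates 2 and 3 only. Upb1 was below Cbs on every array, by 0.06 ± 0.04. Between Ahcy and Cbs, the enzymes that make and use homocysteine, the difference in log2 ratio was 0.75, 0.57, 0.98 and 1.17 on replicates 1 to 4, or 0.87 ± 0.26. All of these arrays share the pool, and since the pairs were formed by their signs no test was made.

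In a limma fit over all 2644 genes at a Benjamini-Hochberg adjusted p under 0.05, Pccb and Ahcy were among the positive calls, which made up 17.1% of genes, and Cbs and Upb1 among the negative calls, which made up 16.6%. Nothing is read from this count or from how the calls held without an array, because the choice of the genes used the same ratios. Leaving out replicate 1, 3 or 4 ended the calls of Cbs (means -0.37, -0.35 and -0.28) and of Upb1 (-0.44, -0.40 and -0.33), and those of Pccb and Ahcy held without each array.

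**Figure D1:**
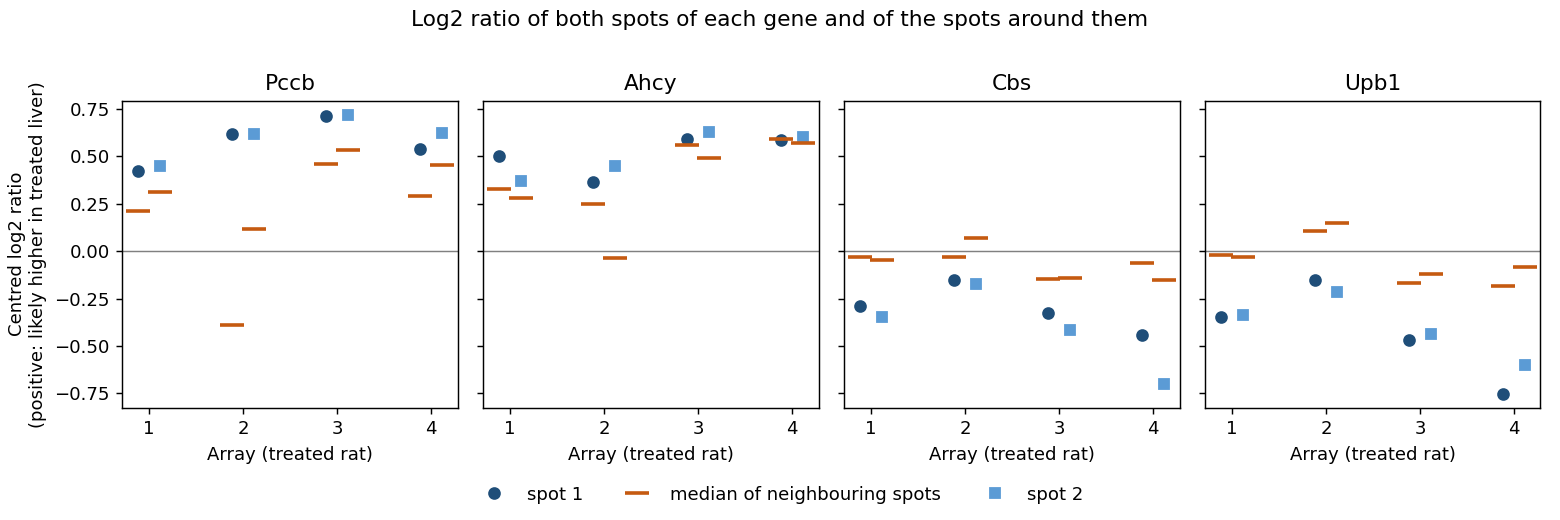
Centred log2 ratio (positive: likely higher in treated liver) of the 2 spots of Pccb, Ahcy, Cbs and Upb1 on arrays 1 to 4, with a bar for the median of the neighbouring spots on the slide. Pccb and Ahcy lie above 0 and Cbs and Upb1 below it on every array, and on array 4 the neighbours of Ahcy (0.59 and 0.57) are as high as Ahcy itself.

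Where the spots sat on the slide moved with these ratios. The layout was inferred from the order of the spots as 8 printing blocks of 31 by 31 spots in 2 columns. Pccb and Ahcy lay in block 1, in the left column, and Cbs and Upb1 in blocks 6 and 8, in the right column. The median of all measured spots of block 1 was 0.19, -0.02, 0.43 and 0.35 on replicates 1 to 4, that of block 6 was -0.11, -0.0005, -0.24 and -0.26, and that of block 8 was -0.11, -0.09, -0.23 and -0.20. The surroundings thus carried the sign of the genes printed there on replicates 1, 3 and 4, and were near 0 on replicate 2 for blocks 1 and 6. Over the whole right column the median was -0.07, -0.04, -0.14 and -0.19 on replicates 1 to 4. That is the order of the arrays in Cbs and Upb1. Among tested genes with all spots in the left column 32.5% were positive and 8.64% negative calls, against 2.89% and 24.3% in the right column.

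**Figure D2:**
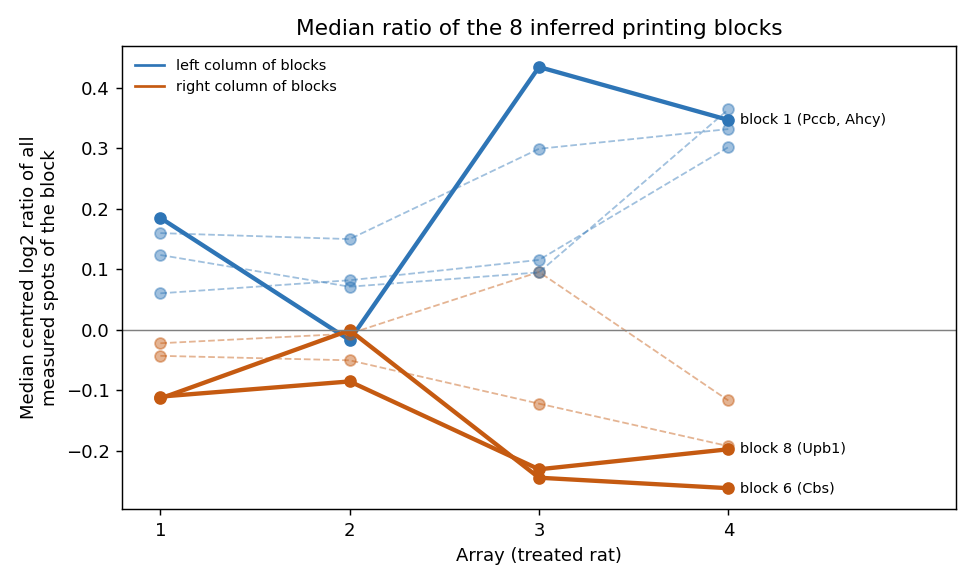
Median centred log2 ratio of all measured spots in each of the 8 inferred printing blocks on arrays 1 to 4, coloured by column, with the blocks that hold Pccb and Ahcy, Cbs, and Upb1 as heavy lines. On array 4 the 4 left blocks lie between 0.30 and 0.36 and the 4 right blocks between -0.26 and -0.12.

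The values of the surroundings are set beside the 4 genes here as a description, since the genes were chosen with these ratios known. Of the 310 tested genes wholly in block 1 (median 0.24), 26 had a higher mean than Pccb and 52 a higher mean than Ahcy. Of the 329 in block 6 (median -0.17), 96 were lower than Cbs, and of the 326 in block 8 (median -0.19), 70 were lower than Upb1. A closer view takes the median of the spots within 3 rows and 3 columns of each spot. That local median averaged 0.25 around Pccb, 0.38 around Ahcy, -0.07 around Cbs and -0.04 around Upb1. Pccb exceeded its neighbours by 0.14 to 1.01, the largest gap being on replicate 2, where the first of its spots stood amid a local median of -0.39. Ahcy exceeded its neighbours in 7 of 8 values, with gaps from -0.006 to 0.48. Cbs lay below its neighbours by 0.12 to 0.55 and Upb1 by 0.26 to 0.57.

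When a smooth loess surface fitted to spot position was taken off every array, the log2 ratios of Pccb became 0.18, 0.60, 0.24 and 0.17 on replicates 1 to 4 (mean 0.30 ± 0.20, SD, n = 4), so that replicate 2 stood apart. Those of Ahcy became 0.15, 0.29, 0.07 and 0.04 (0.14 ± 0.11). For this pair less than the original mean was left, by more than 1 SD. Those of Cbs became -0.27, -0.14, -0.26 and -0.47 (-0.28 ± 0.14) and those of Upb1 -0.29, -0.13, -0.29 and -0.53 (-0.31 ± 0.17), shifts of less than 1 SD. Each gene kept its sign on every array. The background without the surface was 4.2% positive and 13.5% negative calls (111 and 357 genes). None of the 4 genes was called there by limma, and 3 of them (1 positive, 2 negative) had an unadjusted p under 0.05. With the local medians subtracted in its place, Upb1 was the only one called (-0.36 ± 0.12). Nothing is read from these calls either, as the genes were chosen with their ratios known. Ahcy minus Cbs was 0.42 ± 0.07 without the surface, between 0.33 and 0.51, and Pccb minus Upb1 was 0.61 ± 0.13. The differences within the pairs changed as well. Pccb minus Ahcy was 0.16 ± 0.12 and above 0 on every array, at least by 0.03. Cbs minus Upb1 was 0.03 ± 0.03 and no longer of one sign on every array (lowest -0.01). The part of slide position in the ratios beyond these values was not tested.

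**Figure D3:**
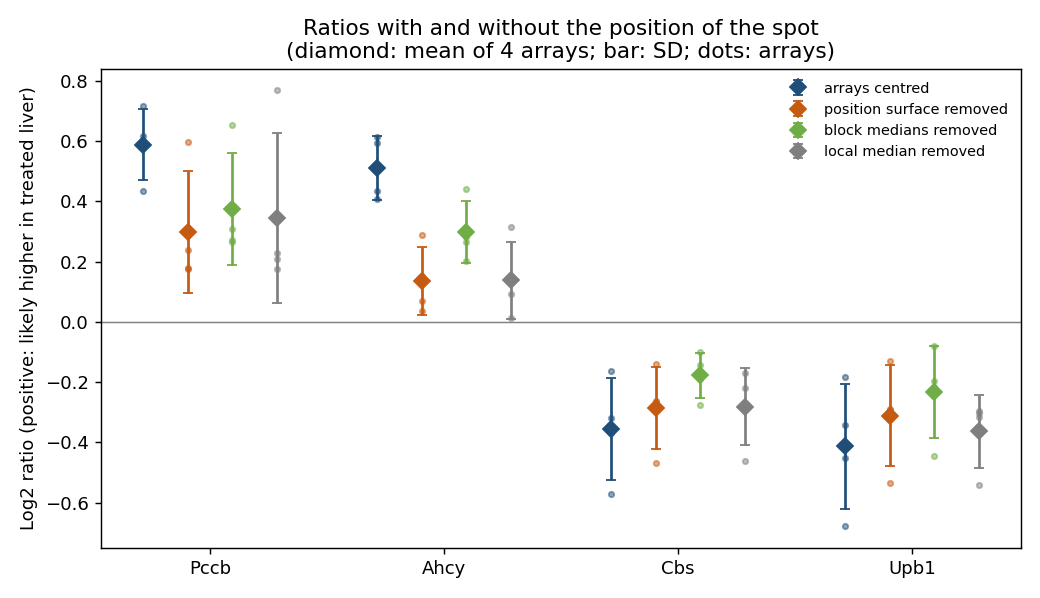
Mean log2 ratio (diamond) with SD (bar) and the 4 arrays (dots) for Pccb, Ahcy, Cbs and Upb1, with arrays centred and with the position surface, the block medians or the local medians removed. Ahcy moves most, from 0.51 to 0.14 without the surface, and every dot stays on its gene's side of 0.

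The genes with the most similar values over the 4 arrays were found by the root mean square difference in log2 ratio. For Pccb they were Myl1 (0.03), Mettl23 (0.04) and Fabp4 (0.04), all printed in block 1. For Ahcy they were Pou3f3 (0.04) and Rac2 (0.04), both in block 1, and Prkcb (0.05), in block 3 of the same column. Cbs was nearest to Sf1 (0.04), Foxk2 (0.05) and Ptbp1 (0.05), and Upb1 to Sf1 (0.06), Esf1 (0.07) and Cbs itself (0.07). None of these neighbours was in the block of Cbs or Upb1, respectively, and all but Foxk2 were in the right column. Ahcy was number 67 in likeness to Pccb.

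The other genes of these pathways were taken from 5 lists written with earlier results of these data known, without the 4 genes. Of 130 genes listed, 45 were on the array under 1 symbol and 40 had a ratio on all arrays. The limma fit called 8 of the 40 positive and 4 negative, with a median log2 ratio of 0.07, against 452 positive and 440 negative of all 2644 genes and a median of 0.01. Of the 40, 21 were in the left column, with 7 positive calls and no negative one, and 19 in the right column, with 1 positive and 4 negative calls. Without the position surface the 8 positive calls ended (0 positive among the 40, 5 at an unadjusted p under 0.05) and 3 of the 4 negative ones held, as did 55 of 452 and 262 of 440 over all genes.

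In propionate and branched-chain amino acid breakdown, the pathway of Pccb, 1 of 9 genes was positive, 3 were negative and 5 were not called. Bcat2, the mitochondrial aminotransferase that starts the breakdown of branched-chain amino acids, was at 0.38 ± 0.21 (SD, n = 4). It was highest on replicate 2, at 0.65, and its call ended without replicate 3 or 4 (0.38 each) and without the surface (0.14 ± 0.22, limma adjusted p = 0.306). Bcat1, an aminotransferase of the same step, was not on the list and is not in its counts. It was a negative call at -0.55 ± 0.14 (limma adjusted p = 0.00738), and was singled out after its values were seen. Hsd17b10, a dehydrogenase of isoleucine breakdown, was at -0.63 ± 0.22 (limma adjusted p = 0.00679) and at -0.71 ± 0.17 without the surface, and its call held without each array. Its values ran from -0.81 to -0.38. Echs1, the enoyl-CoA hydratase shared with fatty acid oxidation, was at -0.61 ± 0.39, with -1.04 on replicate 2 and -0.23 on replicate 1, and its call ended without replicate 4 (-0.54) and without the surface (-0.52, adjusted p = 0.0564). Hibadh, which acts in valine breakdown, was at -0.35 ± 0.24 (adjusted p = 0.0469). Its call held without the surface (-0.41) and ended without each array in turn (-0.42 to -0.24). The 3 negative calls were among the 6 list genes in the right column, where 24.3% of all genes were negative calls, and Bcat2 was in the left one. Pcca, the partner subunit of Pccb, was listed but was not on the array under 1 symbol.

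In the methionine cycle, transsulfuration and sulfur oxidation, the pathway of Ahcy and Cbs, 2 of 12 genes were positive, 1 was negative and 9 were not called. The 2 positive calls were in the left column and the negative one in the right. Tst, the sulfurtransferase rhodanese, was at 0.56 ± 0.16 (SD, n = 4, limma adjusted p = 0.00738), and at 0.18 ± 0.18 without the surface, where its call ended. Ahcyl1, a protein related in sequence to Ahcy, was at 0.34 ± 0.10, from 0.22 on replicate 1 to 0.47 on replicate 2. Its call ended without the surface (0.26) and without replicate 1 (0.38), 3 (0.34) or 4 (0.35). Gss, glutathione synthetase, was at -0.40 ± 0.14 and at -0.42 ± 0.13 without the surface. Its call ended without replicate 3 (-0.43) or 4 (-0.37). Mat1a, which makes S-adenosylmethionine ahead of Ahcy, was not called, at 0.22 ± 0.13 and at -0.0015 without the surface, and Bhmt, which returns homocysteine to methionine, was at 0.04 ± 0.18. This pair was chosen after the values were seen, as direct neighbours of Ahcy and Cbs.

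In pyrimidine and beta-alanine breakdown, the pathway of Upb1, 0 of 4 genes were called by limma and 1 had an unadjusted p under 0.05. Dpys, the dihydropyrimidinase that acts just before Upb1, was at -0.36, -0.02, -0.25 and -0.38 on replicates 1 to 4. Like Upb1 it was nearest to 0 on replicate 2 and lowest on replicate 4. So was the median of all measured spots in the right column, where both are printed. The mean of Dpys was -0.25 ± 0.17 (SD, n = 4, limma adjusted p = 0.0882), in the same block as Upb1. Without replicate 2, its value nearest to 0, it was called at -0.33 (adjusted p = 0.0202). Without replicate 1, 3 or 4 it was not called (-0.22, -0.25 and -0.21, limma adjusted p = 0.236, 0.253 and 0.278). Dpys was not called without the surface (-0.17, limma adjusted p = 0.171) or without block medians (-0.07, adjusted p = 0.544). Cda, cytidine deaminase, was at 0.18 ± 0.07 (adjusted p = 0.154).

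In the urea cycle and nitrogen transfer 2 of 6 genes were positive and none negative (1 at an unadjusted p under 0.05). The positive calls lay 1 in each column. Otc, ornithine transcarbamylase, was at 0.42 ± 0.23 (SD, n = 4) and Glul, glutamine synthetase, at 0.34 ± 0.15. Both calls ended without replicate 1, 3 or 4 (Otc at 0.48, 0.42 and 0.46, Glul at 0.40, 0.34 and 0.34) and without the surface (0.15 and 0.28). Glul also lost its call when arrays were not centred (0.32, limma adjusted p = 0.0502). In the breakdown of the remaining amino acids 3 of 9 genes were positive and none negative (2 at an unadjusted p under 0.05). The 3 positive calls were among the 6 list genes in the left column, where 32.5% of all genes were positive calls. Agxt, the aminotransferase that removes glyoxylate, was at 0.58 ± 0.20. Its values ran from 0.31 on replicate 1 to 0.77 on replicate 2, and its call ended without the surface (0.25 ± 0.23). Gch1, the first enzyme of tetrahydrobiopterin synthesis, was at 0.40 ± 0.29 and at 0.02 without the surface, and its call ended without replicate 1 (0.35), 3 (0.34) or 4 (0.36). Aadat, an aminotransferase of lysine and tryptophan breakdown, was at 0.32 ± 0.18 (adjusted p = 0.0481), and its call ended without the surface (0.07) and without each array (0.24 to 0.38).

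**Figure D4:**
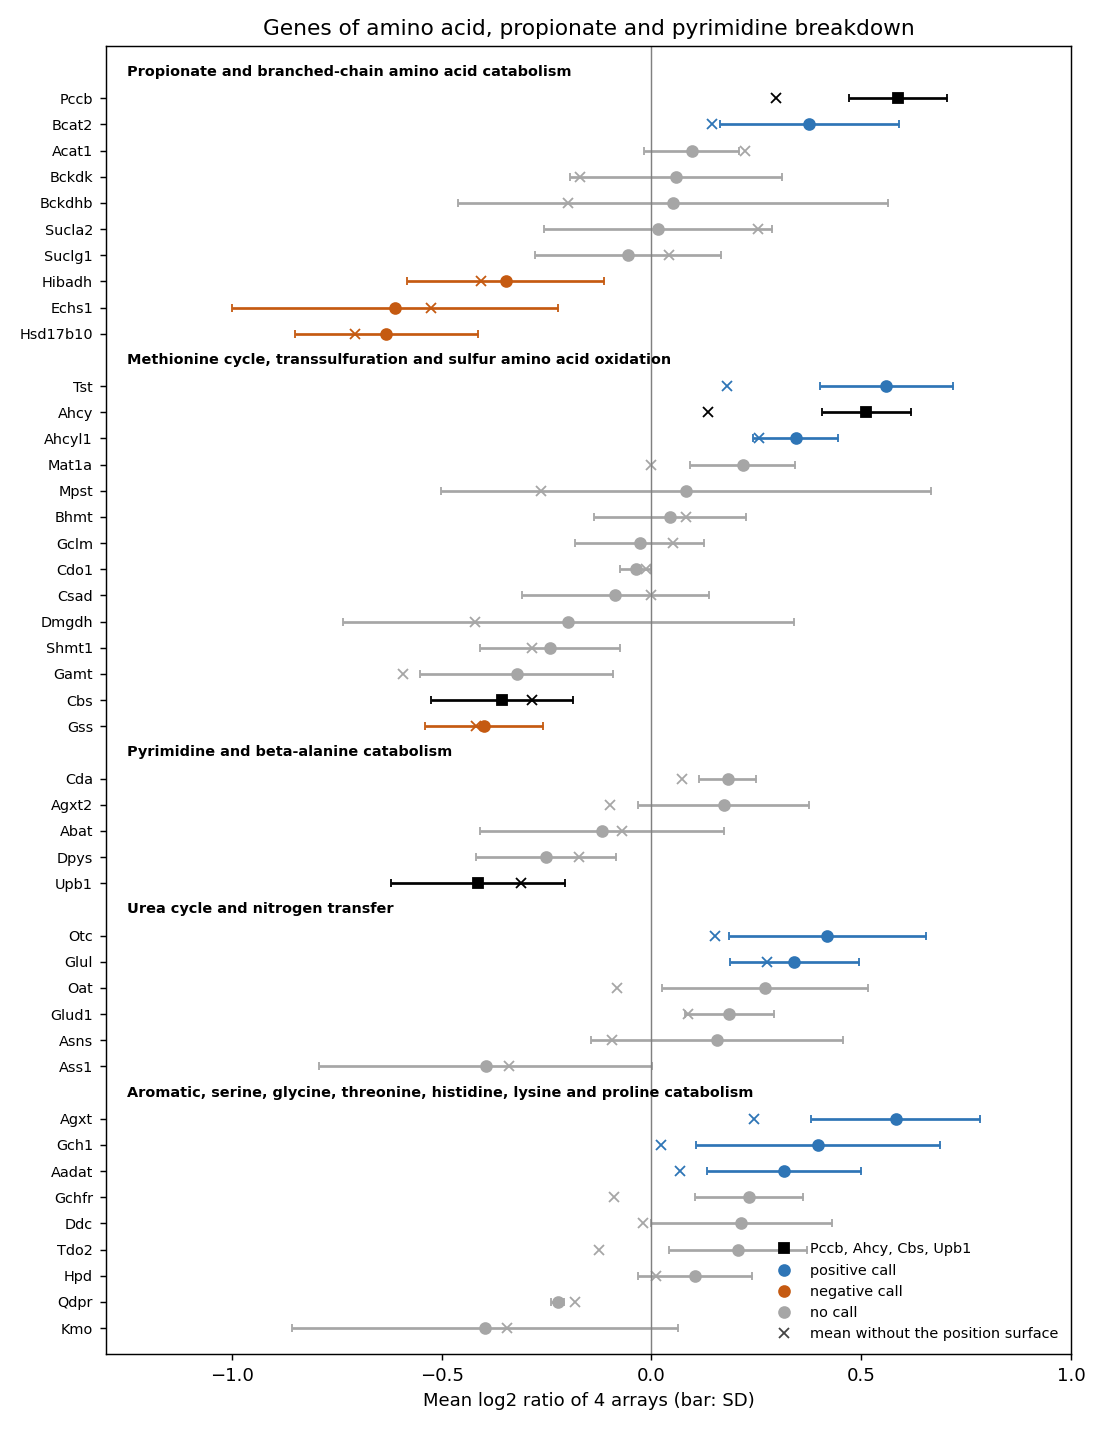
Mean log2 ratio of 4 arrays (bars, SD) for the measured genes of the 5 lists, coloured by limma call, with Pccb, Ahcy, Cbs and Upb1 as black squares and the mean without the position surface as a cross. The crosses of the 8 positive calls lie to the left of their points, between 0.02 and 0.28, while those of Hsd17b10, Hibadh and Gss stay at or beyond theirs.

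Across the series 6499 to 6517 spots per array carried a ratio, and the number of arrays limits the precision. The table holds no intensities, so the presence of liver markers could not be checked as a level. Of 5 measured hepatocyte markers, 2 were negative calls, Tf (-0.69 ± 0.20, SD, n = 4) and Fgb (-0.49 ± 0.31), where 16.6% of all genes were. The 5 means lay between -0.69 and -0.22, some of them with 1 array far below the others. Alb ran from -1.57 on replicate 2 to 0.12 on replicate 1, and Apoa1 from -0.72 on replicate 2 to -0.01 on replicate 4. The position of the markers on the slide was not examined. The 4 measured markers of stellate cells went both ways. Des (0.62) and Dcn (0.48) were positive calls, Acta2 (-0.61) was a negative call and Col1a1 (-0.16) was not called. Kdr (0.40), the only measured one of 4 listed endothelial markers, was a positive call. Cd74 (-0.35), the only measured one of 6 listed leukocyte markers, was a negative call. A single marker does not stand for its cell type. Outside the lists, the endothelial gene Cdh5 was a negative call (-0.85 ± 0.85). The macrophage genes C1qb (-1.23) and C1qc (0.31) were called in opposite directions. Of red blood cell markers, Hbb (-0.88) was a negative call and Alas2 (0.11) was not called. In whole liver, fewer cells of a type and less RNA per cell cannot be told apart, and the part of these markers in the ratios of the 4 genes was not tested.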

How the data were processed

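Liver RNA of treated rats was measured against 1 control pool on 4 two-colour arrays, per the labels, and each array was taken as another rat. The authors deposited 1 log10 ratio per spot, a unit read from the values: in thousandths, 10 to the power of the value was whole within 0.02 for all but at most 1 spot on each array (at most 3.07% with base 2). Array medians were -0.02, -0.04, -0.03 and -0.05 (log10). How the ratio was oriented, scanned, background-corrected and normalized is not given in the sources used here. A value repeated on 1171 to 1189 spots of an array was set to missing. Gene symbols came from an older platform annotation, updated through Entrez numbers (GRCr8 table) for 5140 of 5169 spots with 1 symbol, while 83 spots had several and 2436 none. Replicate numbers only name the arrays.

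Values were converted to log2, averaged per clone, centred on each array's median and averaged per gene. Genes with values on all 4 arrays were fitted in R 4.3.3 with limma 3.58.1 (mean ratio against 0, eBayes, Benjamini-Hochberg, 0.05, two-sided), which was tested on simulated data. The pool counts as 1 control sample. With 4 arrays the smallest p of an exact sign-flip test is 0.125. Alternatives were no centring, quantile normalization, a robust loess surface (span 0.05, degree 1, 4 iterations), block medians, the repeated value kept, at least 3 arrays, clones as rows, a robust prior, each array left out and, chosen after seeing the data, local medians. Named were the 4 genes, the 3 most similar to each, and per list up to 3 called genes of each sign with the largest means, or the 2 with the smallest p. The 4 genes and all lists were chosen with earlier results of these data known.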

Additional observations from a re-analysis of the deposited data

Results flagged for a closer look

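Pccb, Ahcy, Cbs, Upb1 and the 14 pathway genes named by rule were examined, 18 in all. On 2 of them 1 array stood apart, its gap to the nearest other array relative to the whole range exceeding Dixon's critical value, which chance alone gives in about 1 in 20 groups. Tst was at 0.32 (log2 ratio) on replicate 1 against 0.61 to 0.66 on the others, and without that array its mean was 0.64. Gch1 was at -0.039 on replicate 2 against 0.52 to 0.57 on the others, with a mean of 0.54 without it. Pccb, Ahcy, Cbs and Upb1 had no array past this limit.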

How the results depend on the processing

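The sign of Pccb, Ahcy, Cbs and Upb1 was the same under every alternative tried. Pccb and Ahcy moved by more than 1 SD with the position surface removed (0.30 and 0.14, log2), with block medians removed (0.37 and 0.30) and with local medians removed (0.35 and 0.14), and Cbs with block medians removed (-0.18). Without each array in turn the means ranged from 0.55 to 0.64 for Pccb, 0.48 to 0.55 for Ahcy, -0.42 to -0.28 for Cbs and -0.49 to -0.33 for Upb1.

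Counts of calls moved more. Positive genes over the whole table went from 452 to 111 without the surface, 93 without local medians and 736 with the repeated value kept, and negative genes from 440 of 2644 to 677 of 3102 with that value kept and 706 of 4704 with clones as rows, where the share was 15.0% against 16.6%. Positive pathway genes went from 8 to 0 without the surface or the local medians (5 and 4 at an unadjusted p under 0.05), 4 without block medians and 14 with the repeated value kept, and negative ones from 4 to 7 with quantile normalization. Leaving out an array gave 118 to 565 positive and 211 to 528 negative genes, and 2 to 9 positive and 1 to 4 negative pathway genes. Such fits have fewer samples. Of the 12 calls among named pathway genes, 9 ended without the surface, 8 without block medians and 9 without local medians. Hibadh ended with the repeated value kept, and Glul and Aadat without centring. The calls of Cbs and Upb1 ended without block medians and with the repeated value kept. None of the 14 pathway genes named by rule reversed its sign, while Mat1a, named after its values were seen, went from 0.22 to -0.0015 without the surface. The genes most like each of the 4 were not recomputed. No paired analysis was possible because every array compares a treated rat with the same pool. Signal over background is unknown, so faint spots could not be set apart.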

Other observations

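Gamt, guanidinoacetate methyltransferase, which makes creatine and with it S-adenosylhomocysteine, the substrate of Ahcy, was not called with arrays centred (-0.32 ± 0.23, SD, n = 4, limma adjusted p = 0.0589). It was a negative call at -0.59 ± 0.22 (adjusted p = 0.0139) without the position surface, and was singled out after its values were seen.

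Acat1, the acetoacetyl-CoA thiolase that ends isoleucine breakdown, was the one gene of the lists with 2 tested clones, and they disagreed: one was at -0.08 ± 0.15 (SD, n = 4) and the other at 0.28 ± 0.10. Bckdha, Ivd and Fah had no ratio on any array, and Asl and Got1 had one on 1 array each.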
